A study of Mus musculus with 6 samples.

Results

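Cell cycle and DNA replication genes were measured in infarcted mouse hearts with and without the long noncoding RNA lncRNA-DRR. The 44 genes are rows of the expression table whose Ensembl identifier maps to a list of cell cycle gene symbols; the list sets no threshold on a measured value, but it was drawn up with earlier results of these data known. All 44 were found among the 52550 rows of the table, all are protein-coding, and none was listed at 0 in any library. They fall into 8 roles, from the cyclins and kinases that open the cycle to the proteins that replicate DNA and those that divide the chromosomes and the cell.

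A cell that leaves quiescence first makes D-type cyclins, which with CDK4 inactivate the retinoblastoma protein and free E2F factors to switch on genes for DNA synthesis. Cyclin E and cyclin A with CDK2 drive replication, and cyclin B with CDK1, switched on late in the cycle under FOXM1 and B-MYB, drives mitosis. Adult cardiomyocytes rarely divide, and the cells known to multiply in an infarct are mainly fibroblasts, endothelial cells and macrophages, most of all in the first days after the artery closes.

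The left anterior descending coronary artery was tied permanently at 8 weeks of age, and the heart was collected 2 weeks later, at 10 weeks. The samples are 3 wild-type C57BL/6 mice (WT) and 3 C57BL/6 mice of the genotype lncRNA-DRR-/- (KO). All 6 hearts were infarcted, so the comparison asks how the loss of the RNA bears on the infarcted heart, and no uninjured or sham heart was analysed here. The labels do not say how the deletion was made, nor do they give sex, litter, hour of harvest or scar size. RNA of a heart pools its cells, so fewer cycling cells and less RNA per cycling cell cannot be told apart.

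The values were FPKM, fragments scaled to transcript length and library size, from libraries of roughly 5190000 to 9400000 fragments. WT replicate 3 was the shallowest. The 8 markers each of cardiomyocytes, fibroblasts and endothelial cells all passed the filter on low values, at summed levels of 6544 to 10565 FPKM for cardiomyocytes, 1027 to 2375 FPKM for fibroblasts and 326 to 409 FPKM for endothelial cells. KO replicate 3 alone had a high level of Xist, the RNA of the inactive X chromosome (25.6 FPKM, against 0.0742 FPKM or less in the other libraries), and almost none of the Y-linked Ddx3y (0.0280 FPKM, against 13.0 to 16.2 FPKM). By these genes it was the only female heart. No row was taken as lncRNA-DRR, so the genotype labels were not checked by the deleted RNA itself.

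None of the cell cycle genes differed between the genotypes past the threshold. Of the 44 genes, 43 passed the filter on low values (at least 0.5 FPKM in 3 or more libraries), and 0 of the 43 rose or fell in KO hearts at an adjusted p under 0.05 by limma, a linear model fitted to all 14656 tested genes. Over all tested genes 0.375% were called. At an unadjusted limma p under 0.05 there was 1 of 43, against 8.48% of all tested genes, and the smallest adjusted p among the 43 was 0.406 (limma). The median difference over the 43 was 0.05 on the scale of log2(FPKM + 0.5), KO minus WT, on which all log2 differences here are given; it was -0.00416 over all tested genes. The difference was above 0 for 28 genes and below 0 for 15.

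The intervals show how large a difference the 6 libraries leave room for. The 95% interval of the log2 difference, not adjusted for the number of genes, lay within a 2-fold change in either direction for 39 of the 43 genes, and within a 1.5-fold change for 16. The exceptions to the first count were Ccnd3, Ccne2, E2f1 and Cdca3. The scale with its added 0.5 understates the change of genes with low FPKM, and 11 of the 44 genes had a mean under 1 FPKM. For Cdca8, a subunit of the chromosomal passenger complex that guides chromosome attachment, the 6 libraries held a median of only about 6.6 fragments, against about 580 for Mki67.

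**Figure D1:**
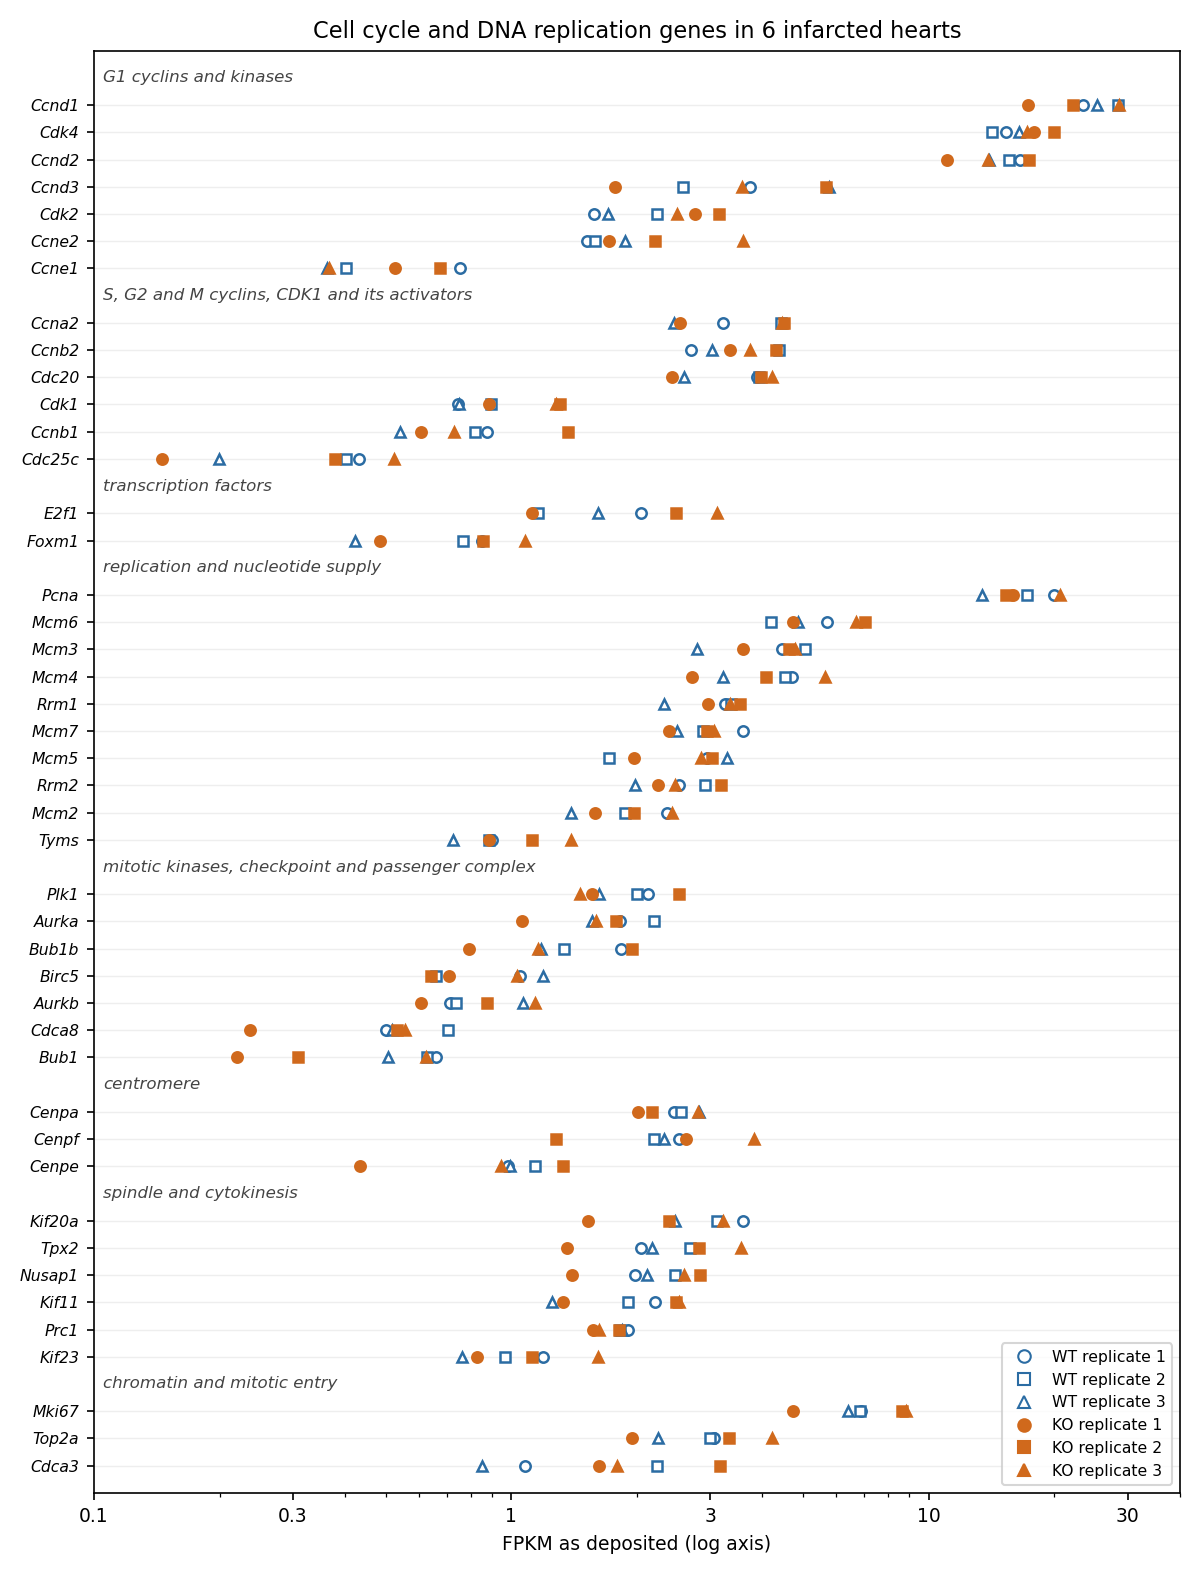
FPKM as deposited (horizontal log axis) of the 44 genes, ordered by role and by mean level, with open blue symbols for the 3 WT hearts and filled orange symbols for the 3 KO hearts; circles, squares and triangles are replicates 1, 2 and 3. WT and KO symbols are mixed in nearly every row, and the orange circle of KO replicate 1 is often the leftmost.

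The D-type cyclin gene Ccnd1 had the largest mean of all 44 genes, 24.2 FPKM, followed by Pcna, Cdk4 and Ccnd2; these 4 genes had means of at least 10 FPKM, 29 lay between 1 and 10 FPKM. FPKM is a level per length of transcript, so these levels can be set side by side. Ccnd1 stood at 23.4, 28.4 and 25.3 FPKM in WT replicates 1 to 3 and at 17.3, 22.2 and 28.6 FPKM in KO replicates 1 to 3. Ccnd2, another D-type cyclin gene, stood at 16.6, 15.6 and 14.0 FPKM in the WT and at 11.1, 17.4 and 13.9 FPKM in the KO hearts. Ccnd3, the remaining one, stood at 3.73, 2.58 and 5.77 FPKM in the WT and 1.77, 5.69 and 3.57 FPKM in the KO hearts. In all 3 cyclin D genes KO replicate 1 was the lowest library and the genotypes overlapped. Their log2 differences were -0.19 ± 0.20 for Ccnd1, -0.13 ± 0.14 for Ccnd2 and -0.17 ± 0.38 for Ccnd3 (SE, n = 3 each; limma adjusted p = 0.855, 0.864 and 0.947). Exons of Ccnd1, Ccnd2 and Ccnd3 overlap those of genes on the opposite strand, and the sources used here do not say whether reads were counted by strand.

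Cdk2 and Cdk4 were the genes of the module whose KO values all lay above their WT values both as deposited and after scaling. Cdk2, which encodes the partner kinase of cyclins E and A, stood at 1.58, 2.24 and 1.71 FPKM in the WT and at 2.75, 3.15 and 2.49 FPKM in the KO hearts. Its log2 difference was 0.51 ± 0.16 (SE, n = 3 each), with a 95% interval from 0.12 to 0.89, and it did not pass the test (limma adjusted p = 0.406). Cdk4, which encodes the partner kinase of the D-type cyclins, stood at 15.3, 14.2 and 16.5 FPKM in the WT and at 17.9, 20 and 17.2 FPKM in the KO hearts. The groups were separated by a narrow gap, and the log2 difference was 0.27 ± 0.12 (SE, n = 3 each; limma adjusted p = 0.630). An exon of Cdk4 shares 641 bases with Tspan31 on the opposite strand, which reached 23.1 FPKM, and whether reads of that stretch were assigned by strand is not known, while Cdk2 shares only 34 bases with Pmel, which reached 0.346 FPKM. Both kinase genes lie on chromosome 10 in GRCm38, Cdk2 at 128697939 to 128705031 on the minus strand and Cdk4 at 127063534 to 127067920 on the plus strand.

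The cyclin E genes differed in level. Ccne1 had a mean of 0.507 ± 0.216 FPKM in the WT and 0.523 ± 0.156 FPKM in the KO hearts, and Ccne2 of 1.66 ± 0.19 and 2.51 ± 0.98 FPKM (SD, n = 3 each). In Ccne2 the value of KO replicate 3, 3.6 FPKM, stood apart from 1.72 and 2.21 FPKM in the other KO hearts, and the WT values of 1.52 to 1.87 FPKM overlapped the KO values. Of the 7 genes of this role 0 rose and 0 fell, with log2 differences from -0.19 to 0.51 and a median of 0.04.

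The factors that pass the signal on to other cell cycle genes were present at low levels. E2f1, the E2F factor that activates genes for the start of S phase, stood at 2.05, 1.16 and 1.61 FPKM in the WT. It stood at 1.12, 2.48 and 3.12 FPKM in the KO hearts. As deposited the KO hearts held both the lowest and the highest value. After scaling, WT replicate 2 was the lowest library and KO replicate 3 the highest. Foxm1, which drives genes of G2 and mitosis, stood at 0.850, 0.766 and 0.422 FPKM in the WT and at 0.484, 0.854 and 1.08 FPKM in the KO hearts. The log2 differences were 0.33 ± 0.30 for E2f1 and 0.15 ± 0.25 for Foxm1 (SE, n = 3 each; limma adjusted p = 0.838 and 0.918).

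The replication genes showed no difference past the threshold either: of 10 genes 0 rose and 0 fell, 8 differences were above 0, and the median was 0.09. Pcna, the sliding clamp that holds DNA polymerase on its template, stood at 20, 17.2 and 13.4 FPKM in the WT and at 15.9, 15.3 and 20.7 FPKM in the KO hearts. Its log2 difference was 0.05 ± 0.18 (SE, n = 3 each; limma adjusted p = 0.967), and the KO values lay within or close to the WT range. A pseudogene, Pcna-ps2, is 99.2% identical to Pcna over 781 bases and reached 0.72 FPKM. The 6 subunits of the MCM helicase, which unwinds DNA at origins, had means between 1.93 FPKM (Mcm2) and 5.55 FPKM (Mcm6). Mcm2 stood at 2.36, 1.87 and 1.39 FPKM in the WT and at 1.59, 1.97 and 2.43 FPKM in the KO hearts, an overlap over nearly the whole range (log2 difference 0.09 ± 0.19, SE, n = 3 each; limma adjusted p = 0.938). Mcm6, the replication gene of smallest p, stood at 5.72, 4.19 and 4.88 FPKM in the WT and at 4.74, 7.05 and 6.71 FPKM in the KO hearts, with KO replicate 1 inside the WT range (log2 difference 0.30 ± 0.16; limma adjusted p = 0.7). The other 4 subunits had log2 differences from -0.06 (Mcm7) to 0.11 (Mcm3).

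Genes that supply nucleotides followed the same course. Rrm2, the regulated subunit of ribonucleotide reductase, stood at 2.53, 2.91 and 1.98 FPKM in the WT and at 2.25, 3.18 and 2.47 FPKM in the KO hearts (log2 difference 0.09 ± 0.16, SE, n = 3 each; limma adjusted p = 0.931). Rrm1, its larger partner, had means of 2.98 ± 0.58 and 3.29 ± 0.29 FPKM (SD, n = 3 each). Tyms, which encodes thymidylate synthase, stood at 0.899, 0.883 and 0.724 FPKM in the WT and at 0.885, 1.12 and 1.39 FPKM in the KO hearts. As deposited the genotypes overlapped for Tyms by KO replicate 1, and after scaling all KO values lay above all WT values (log2 difference 0.29 ± 0.18, limma adjusted p = 0.755). A stretch of Tyms matches a transcript of Reep3 over 355 bases at 97.7% identity, and Reep3 reached 19.0 FPKM. How reads of that stretch were assigned is not known.

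Cyclins of S phase and mitosis had no member past the threshold, and all 5 tested differences were above 0, with a median of 0.17. Ccna2, which encodes cyclin A2 of S phase and G2, stood at 3.22, 4.43 and 2.45 FPKM in the WT and at 2.54, 4.51 and 4.46 FPKM in the KO hearts. Ccna2 shares 428 bases of exon with Exosc9 on the opposite strand, which reached 4.61 FPKM. Ccnb1, the main mitotic cyclin gene, stood at 0.876, 0.818 and 0.541 FPKM in the WT and at 0.609, 1.37 and 0.731 FPKM in the KO hearts, with only KO replicate 2 above the WT range; a pseudogene, Ccnb1-ps, is 99.2% identical to it over 1287 bases and is listed at 0. The log2 differences of Ccna2 and Ccnb1 were 0.17 ± 0.25 and 0.15 ± 0.23 (SE, n = 3 each; limma adjusted p = 0.901 and 0.909). Cdk1, the kinase gene of mitosis, stood at 0.747, 0.893 and 0.75 FPKM in the WT and at 0.887, 1.31 and 1.28 FPKM in the KO hearts. KO replicates 2 and 3 lay above the WT hearts and KO replicate 1 just below the highest of them as deposited, though above it after scaling (log2 difference 0.35 ± 0.18, 95% interval -0.07 to 0.77; limma adjusted p = 0.675). Ccnb2, the other cyclin B gene of the module, had means of 3.37 ± 0.90 and 3.80 ± 0.49 FPKM (SD, n = 3 each). Cdc20, the activator of the anaphase promoting complex, had means of 3.47 ± 0.75 and 3.54 ± 0.97 FPKM (SD, n = 3 each). Cdc25c, the phosphatase that activates CDK1, was the gene that did not pass the filter, at 0.432, 0.403 and 0.199 FPKM in the WT and 0.146, 0.379 and 0.525 FPKM in the KO hearts, and it was not tested.

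Of 7 mitotic kinase and checkpoint genes 0 rose and 0 fell; 6 had a difference below 0, with a median of -0.16. Their mean deviation was -0.32 in KO replicate 1, but 0.01 and 0.07 in KO replicates 2 and 3, and 0.06, 0.09 and 0.09 in WT replicates 1 to 3, so KO replicate 1 alone lay well below the WT hearts. Bub1, a checkpoint kinase that holds anaphase until chromosomes are attached, stood at 0.660, 0.630 and 0.507 FPKM in the WT and at 0.220, 0.309 and 0.625 FPKM in the KO hearts (log2 difference -0.33 ± 0.24, SE, n = 3 each; limma adjusted p = 0.789). Birc5, which encodes survivin of the passenger complex, stood at 1.05, 0.660 and 1.19 FPKM in the WT and at 0.710, 0.644 and 1.03 FPKM in the KO hearts (log2 difference -0.16 ± 0.23; limma adjusted p = 0.898). In Bub1 the KO hearts 1 and 2 lay below the WT hearts and the third among them, while in Birc5 the ranges largely coincided. The kinase genes Aurka, Aurkb and Plk1 had log2 differences of -0.25, 0.03 and -0.05, the checkpoint gene Bub1b of -0.14, and Cdca8 of -0.20.

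Genes of the centromere and spindle overlapped between the genotypes, with 1 exception. Prc1, which bundles the microtubules of the central spindle, stood at 1.90, 1.82 and 1.84 FPKM in the WT and at 1.57, 1.81 and 1.62 FPKM in the KO hearts, so that KO replicate 2 missed the WT range by a narrow margin (log2 difference -0.11 ± 0.13, SE, n = 3 each; limma adjusted p = 0.876). It shares up to 670 bases of exon with Rccd1 on the opposite strand. Kif20a, a kinesin of cytokinesis, stood at 3.6, 3.11 and 2.47 FPKM in the WT and at 1.53, 2.39 and 3.21 FPKM in the KO hearts (log2 difference -0.33 ± 0.23; limma adjusted p = 0.782). It shares 977 bases of exon with Cdc23 on the opposite strand. Cenpa, the histone variant that marks centromeres, stood at 2.46, 2.55 and 2.82 FPKM in the WT and at 2.01, 2.18 and 2.81 FPKM in the KO hearts (log2 difference -0.13 ± 0.17; limma adjusted p = 0.886). KO replicates 1 and 2 of Cenpa lay below the WT hearts and KO replicate 3 among them. The log2 differences of the other 6 genes of both roles ran from -0.18 for Cenpe, a kinesin of the kinetochore, to 0.19 for Kif11 and Kif23, the motors that separate spindle poles and build the central spindle.

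Mki67, whose protein Ki-67 coats mitotic chromosomes and marks cycling cells, gave the clearest view of the spread among KO hearts. It stood at 6.89, 6.85 and 6.41 FPKM in the WT and at 4.73, 8.64 and 8.84 FPKM in the KO hearts. The WT hearts lay close together, KO replicate 1 below all of them and KO replicates 2 and 3 above all of them. The mean was 6.72 ± 0.27 FPKM in the WT and 7.41 ± 2.32 FPKM in the KO hearts (SD, n = 3 each), and the log2 difference was 0.09 ± 0.21 (SE; limma adjusted p = 0.944). Top2a, which encodes the topoisomerase that untangles sister chromatids, had the same order among KO hearts, with 3.07, 3.00 and 2.25 FPKM in the WT and 1.95, 3.33 and 4.22 FPKM in the KO hearts (log2 difference 0.13 ± 0.24; limma adjusted p = 0.926). Cdca3, a trigger of mitotic entry, had the largest log2 difference of the module, 0.54 ± 0.30 (limma adjusted p = 0.709). It stood at 1.08, 2.23 and 0.853 FPKM in the WT and 1.62, 3.16 and 1.79 FPKM in the KO hearts, where WT replicate 2 exceeded KO replicates 1 and 3. Mki67 lies on chromosome 7 in GRCm38, at 135689784 to 135716361 on the minus strand.

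**Figure D2:**
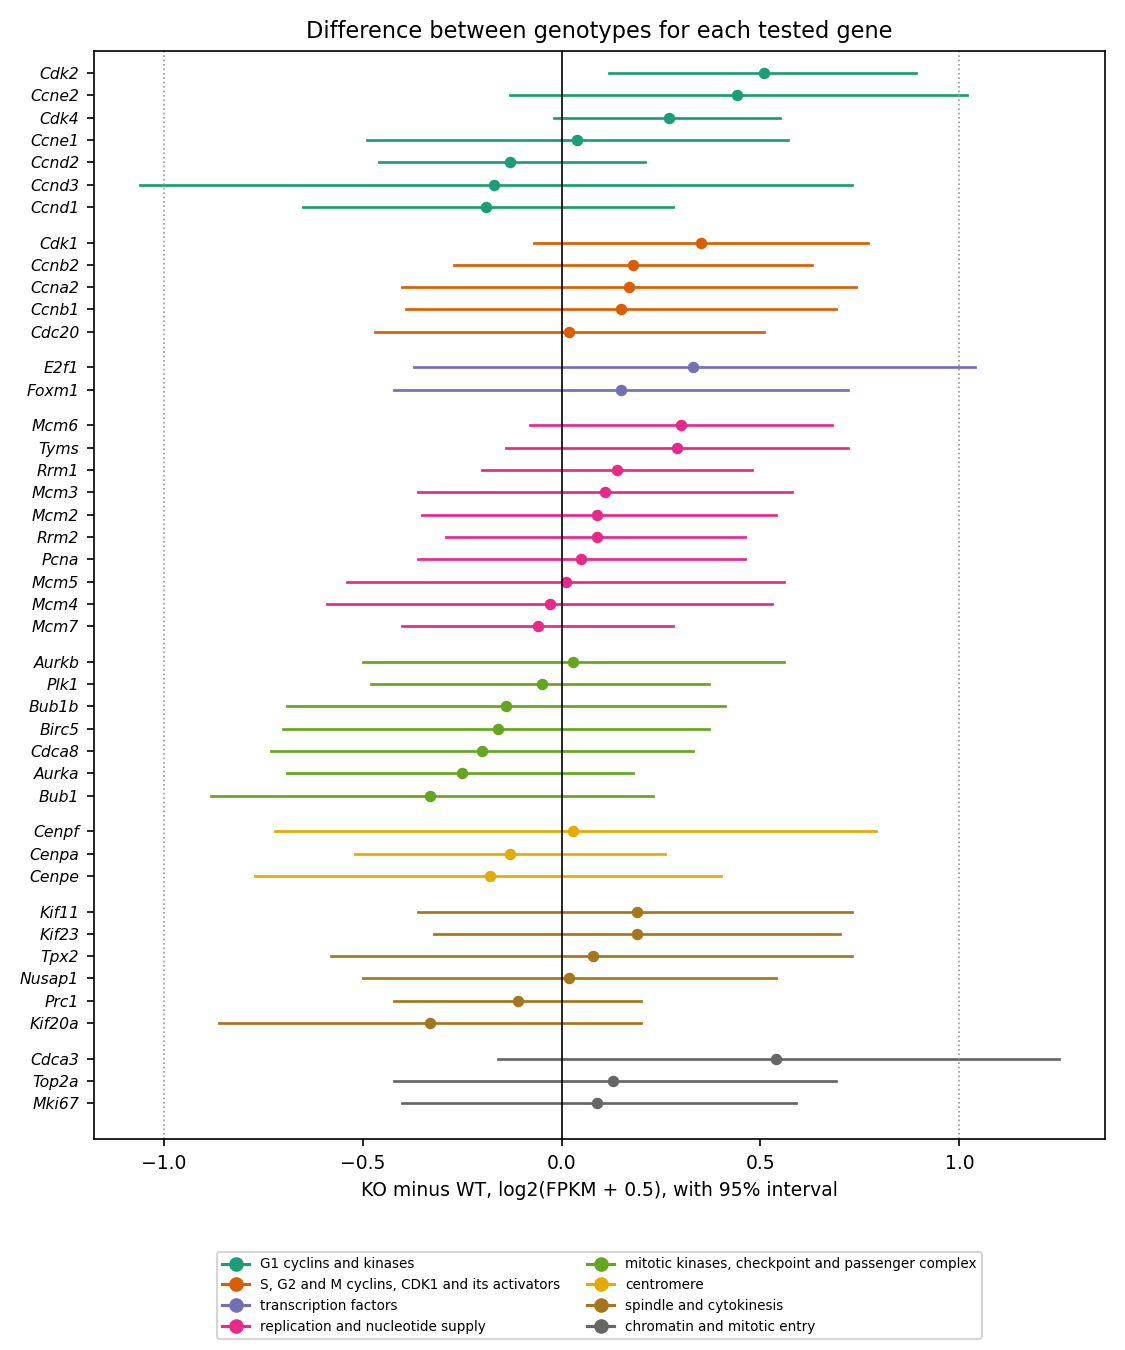
Fitted difference between the genotypes (KO minus WT, log2(FPKM + 0.5)) with its 95% interval for the 43 tested genes, coloured by role; dotted lines mark a 2-fold change. All intervals except that of Cdk2 cross 0, and 39 of the 43 lie between the dotted lines.

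Only a few genes had genotypes that did not overlap. After scaling, all KO values lay above all WT values for 4 of the 43 genes (Cdk1, Cdk2, Cdk4 and Tyms), against 6.53% of all tested genes, and below them for 1 (Prc1), against 7.49%. In either direction that was 5 of 43, against 14.0% of all tested genes. Without scaling beyond the deposited FPKM the count was 3, since Cdk1 and Tyms overlapped. Of all 14656 tested genes, 775 then lay above and 1099 below.

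Single hearts stood apart for these genes. KO replicate 1 was the lowest of the 6 libraries for 18 of the 43 genes (41.9%, against 16.0% of all tested genes) and the highest for 0. KO replicate 3 was the highest for 21 (48.8%, against 17.7%), and the lowest for 2. KO replicate 1 lay below both other KO hearts for 35 of the 43 genes (81.4%, against 29.0%). Among WT hearts, the shallow WT replicate 3 was the lowest library for 12 genes (27.9%, against 17.3%). The mean deviation of the 43 genes from their own average over the libraries was -0.23 in KO replicate 1, 0.10 in KO replicate 2 and 0.23 in KO replicate 3 on the log2 scale, and -0.04, 0.03 and -0.08 in WT replicates 1 to 3; over all tested genes it lay between -0.02 and 0.02. The median SD on the log2 scale was 0.28 among KO and 0.19 among WT hearts for these genes, and 0.21 and 0.18 over all tested genes.

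**Figure D3:**
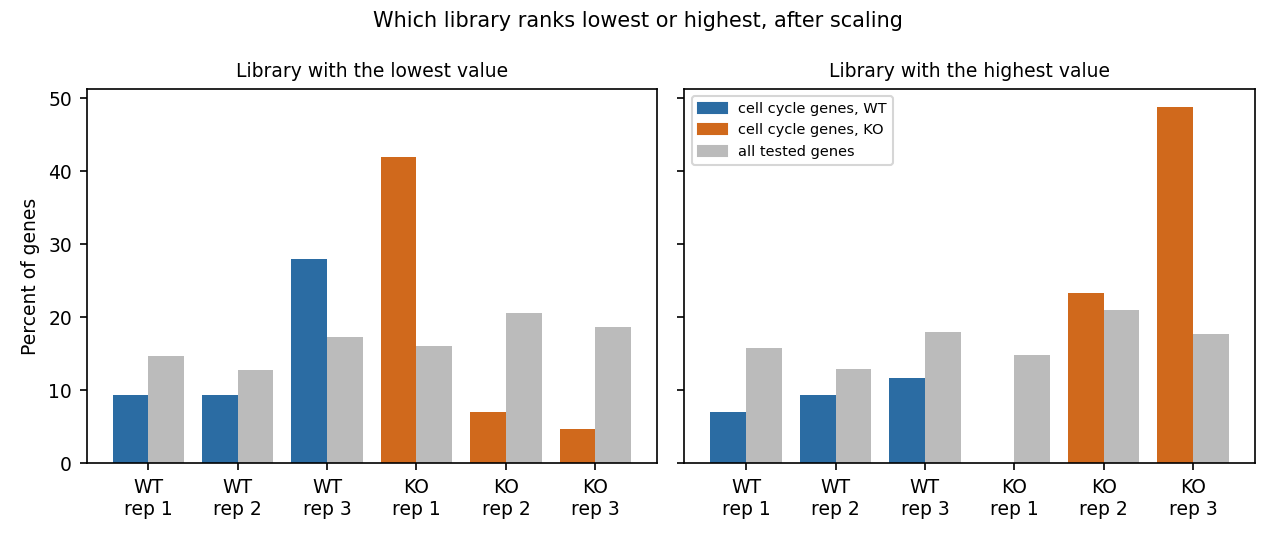
Share of genes (percent, vertical axis from 0) for which each library has the lowest (left) or highest (right) scaled value, for the 43 cell cycle genes (blue WT, orange KO) and for all tested genes (grey). KO replicate 1 is lowest for 41.9% and KO replicate 3 highest for 48.8% of the cell cycle genes.

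KO replicate 1 had the lowest mean deviation of the KO hearts in 7 of the 8 roles, with the centromere role as the exception. For the 2 transcription factors the mean deviation ran from -0.37 in KO replicate 1 to 0.54 in KO replicate 3. For the 6 spindle and cytokinesis genes the mean deviation ran from -0.36 in KO replicate 1 to 0.31 in KO replicate 3, with the WT hearts between -0.10 and 0.09. For the 10 replication genes it ran from -0.17 in WT replicate 3 to 0.24 in KO replicate 3. KO replicate 3 is also the only heart that reads as female, so sex and the single heart cannot be told apart. Its depth was about 6870000 fragments, and that of KO replicate 1 about 7040000. The part of depth in the pattern was not tested. Without KO replicate 3 the median log2 difference of the module was -0.06, with 18 genes above 0 and 25 below it; the KO values lay all above the WT values for 4 genes and all below for 5, against 13.1% and 13.9% of all tested genes. Without KO replicate 1 it was 0.19, with 32 genes above 0 and 10 below it, and all KO values lay above all WT values for 12 of 42 tested genes, and all below for 1, against 10.4% and 11.0% of all tested genes in that comparison of 3 with 2 libraries. In both cases 0 genes of the module were called by limma. At an unadjusted limma p under 0.05 there were 3 of 43 without KO replicate 3, against 9.60% of all tested genes, and 5 of 42 without KO replicate 1, against 6.69%.

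Promoters of the module were searched for known cell cycle elements. The windows searched run from 250 bases before to 50 bases after the gene start in RefSeq (GRCm38.p6) and were found for 34 of the 44 genes. Ccnd1, Ccnd2, Ccne2, Ccna2, Cdc25c, Foxm1, Mcm4, Aurkb, Kif20a and Tpx2 had no entry. The search was for TTTGAA (the cell cycle homology region, CHR, where the MuvB complex binds), CCAAT (the box of the factor NF-Y), the E2F forms TTTGGCGC, TTTCCCGC, TTTCGCGC and TTTGCCGC, and the E-box CACGTG, each on both strands with overlapping matches allowed. A CHR was found in 15 of 20 windows of genes of S, G2 and M cyclins, mitosis and chromosomes, in 1 of 9 replication genes and in 0 of 4 G1 genes, against 20.2% of the 27025 genes with a window. An E2F form was found in 4 of 9 replication genes (Mcm3, Mcm5, Mcm6 and Mcm7) and in 1 of the 20 mitotic genes, against 2.60% of all genes. A CCAAT box was found in 28 of 34 genes, against 41.1%, and an E-box in 2 of 34, against 8.09%.

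The windows below show an E2F gene of replication (Mcm6, chr1:128359656-128359955, minus strand), the kinase gene that came nearest to the threshold (Cdk2, chr10:128705002-128705301, minus strand), 2 genes of the mitotic kinase complex with a CHR (Cdk1, chr10:69352863-69353162, minus strand; Ccnb2, chr9:70421505-70421804, minus strand), and the gene with 4 E-boxes (Cdk4, chr10:127063285-127063584, plus strand). Sequences are given 5′ to 3′ on the strand of the gene, and capitals mark E2F forms and CCAAT boxes in Mcm6 and Cdk2, these and CHRs in Cdk1, CHRs and CCAAT boxes in Ccnb2, and E-boxes in Cdk4.
Mcm6: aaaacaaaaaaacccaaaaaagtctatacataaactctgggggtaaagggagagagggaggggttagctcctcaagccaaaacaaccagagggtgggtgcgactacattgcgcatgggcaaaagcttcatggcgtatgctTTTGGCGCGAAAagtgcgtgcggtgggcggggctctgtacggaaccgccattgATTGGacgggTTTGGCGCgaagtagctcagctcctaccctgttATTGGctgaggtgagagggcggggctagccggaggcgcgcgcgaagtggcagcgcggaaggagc
Cdk2: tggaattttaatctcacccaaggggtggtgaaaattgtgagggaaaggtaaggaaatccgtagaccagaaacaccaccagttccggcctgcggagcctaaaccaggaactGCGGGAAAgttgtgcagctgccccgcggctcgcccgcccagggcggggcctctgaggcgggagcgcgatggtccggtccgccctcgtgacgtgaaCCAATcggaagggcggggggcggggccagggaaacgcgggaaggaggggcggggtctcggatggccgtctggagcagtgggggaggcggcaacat
Cdk1: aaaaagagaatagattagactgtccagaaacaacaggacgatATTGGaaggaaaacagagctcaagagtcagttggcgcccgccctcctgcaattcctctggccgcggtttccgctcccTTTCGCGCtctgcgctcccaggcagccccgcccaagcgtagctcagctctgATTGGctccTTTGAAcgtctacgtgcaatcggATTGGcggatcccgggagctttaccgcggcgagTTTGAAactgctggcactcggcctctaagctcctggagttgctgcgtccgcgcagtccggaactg
Ccnb2: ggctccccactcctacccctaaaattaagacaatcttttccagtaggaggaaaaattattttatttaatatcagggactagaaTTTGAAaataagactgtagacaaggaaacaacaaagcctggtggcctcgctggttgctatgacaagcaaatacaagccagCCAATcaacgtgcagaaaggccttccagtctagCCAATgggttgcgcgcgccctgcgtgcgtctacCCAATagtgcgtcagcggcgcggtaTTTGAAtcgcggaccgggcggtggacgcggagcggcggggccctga
Cdk4: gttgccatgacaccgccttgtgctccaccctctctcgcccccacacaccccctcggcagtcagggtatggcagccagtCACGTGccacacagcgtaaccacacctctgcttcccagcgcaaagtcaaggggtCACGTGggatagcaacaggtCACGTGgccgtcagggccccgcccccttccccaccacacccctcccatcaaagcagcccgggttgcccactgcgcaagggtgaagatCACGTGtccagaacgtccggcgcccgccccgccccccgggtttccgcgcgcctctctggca
In Mcm6 the first capital run joins TTTGGCGC with an overlapping TTTCGCGC on the other strand. Cdk1 holds all 3 kinds of cell cycle element, with 2 CHRs, 3 CCAAT boxes and 1 E2F form, and Ccnb2 holds 2 CHRs and 3 CCAAT boxes. The expression of the genes was not tested against these matches.

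Outside the module, 2 brakes of the cell cycle rose in KO hearts. Among 8 further lists of cell cycle machinery, 146 of 164 genes were tested, and 2 rose and 0 fell (0.273% and 0.102% of all tested genes). Both belong to the list of CDK inhibitors and brakes, where 2 of 18 rose, 15 differences were above 0 and the median was 0.19. The lists were chosen with earlier results of these data known, and Wee1 was to be named in any case. These counts are therefore only a description. Wee1, whose kinase keeps CDK1 inactive by phosphorylation, rose from 2.49, 3.26 and 2.17 FPKM in the WT to 9.63, 10.4 and 9.93 FPKM in the KO hearts. The groups lay far apart, with a mean of 2.64 ± 0.56 against 10.0 ± 0.4 FPKM (SD, n = 3 each) and a log2 difference of 1.77 ± 0.15 (SE; limma adjusted p = 0.0057). Tob2, an antiproliferative protein of the TOB and BTG family, rose from 7.87, 8.38 and 8.20 FPKM to 17.5, 22.0 and 21 FPKM (log2 difference 1.26 ± 0.12; limma adjusted p = 0.012). The gene Wee1 spans 110122046 to 110143286 on the plus strand of chromosome 7, and Tob2 81848272 to 81858796 on the minus strand of chromosome 15 (GRCm38).

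Wee1 is known in mouse liver as a direct target of the circadian clock, and since the hour of harvest is not among the labels, genotype and hour cannot be told apart for it. Leaving out KO replicate 1 took both calls past the threshold (limma adjusted p = 0.054 for each), as did leaving out WT replicate 2 for Tob2 (0.067). Over the 6 libraries left out in turn, the log2 difference of Wee1 was 1.69 to 1.91, with a limma adjusted p of 0.015 to 0.054, and for Tob2 it was 1.19 to 1.33, with 0.038 to 0.067. Cdk1, which encodes the substrate of WEE1, had the values given above and was not called. Those values are RNA levels, and the phosphorylation of the CDK1 protein was not measured here.

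**Figure D4:**
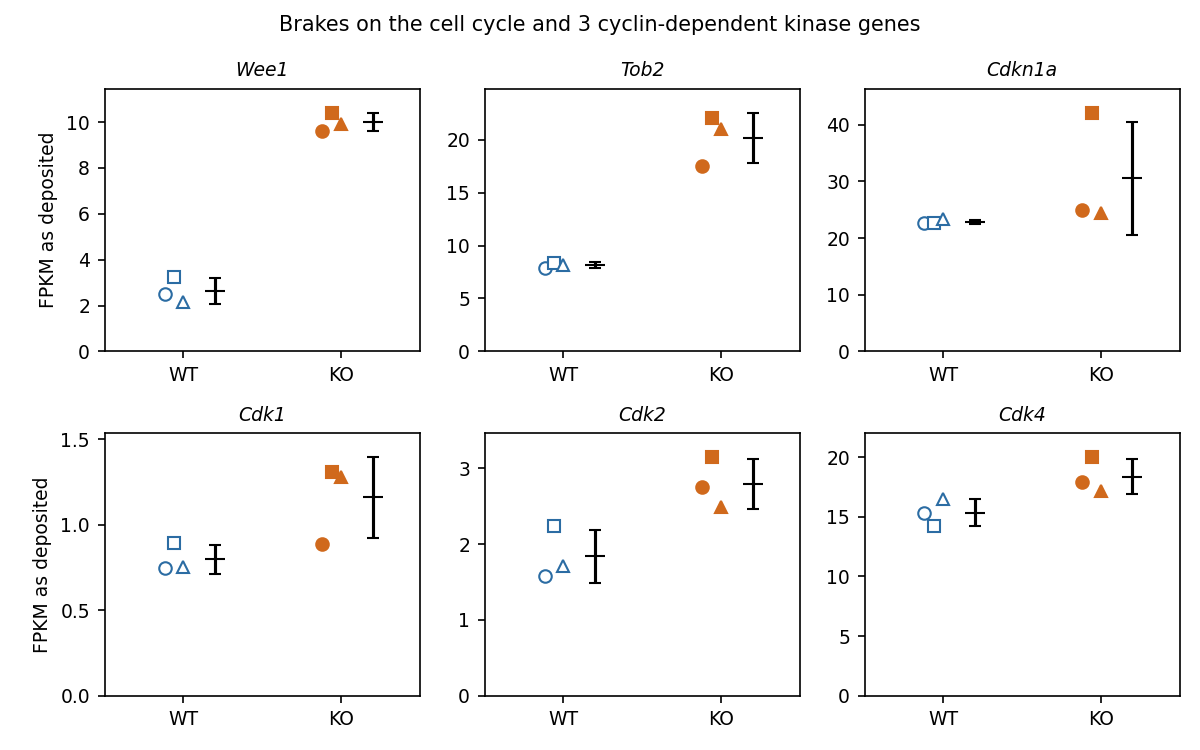
FPKM as deposited (vertical axes from 0) in each WT (open blue) and KO heart (filled orange) for the brakes Wee1, Tob2 and Cdkn1a and for the kinase genes Cdk1, Cdk2 and Cdk4; circles, squares and triangles are replicates 1, 2 and 3, and black bars show mean ± SD. Wee1 and Tob2 are separated by wide gaps, Cdkn1a, Cdk2 and Cdk4 by narrow ones, and the genotypes overlap for Cdk1.

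The classical CDK inhibitor genes did not pass the test. Cdkn1a, which encodes p21, stood at 22.7, 22.7 and 23.3 FPKM in the WT and at 25.0, 42.1 and 24.5 FPKM in the KO hearts. Every KO value lay above every WT value, but only KO replicate 2 was far from the rest (log2 difference 0.37 ± 0.19, SE, n = 3 each; limma adjusted p = 0.670). Cdkn1c, which encodes p57, stood at 7.60, 5.80 and 8.64 FPKM in the WT and at 10.9, 10.2 and 6.97 FPKM in the KO hearts (log2 difference 0.34 ± 0.21; limma adjusted p = 0.756). KO replicate 3 of Cdkn1c lay within the WT range. Btg2, a relative of Tob2 named here after its values were seen, stood at 11.3, 10.6 and 8.88 FPKM in the WT and at 11.5, 15.5 and 16.7 FPKM in the KO hearts (log2 difference 0.49 ± 0.15; limma adjusted p = 0.382). In that list, chosen like the others with earlier results known, all KO values lay above all WT values for 6 of 18 genes, and in 0 below. The shares of all tested genes were 6.53% and 7.49%. Cdkn2a, counted among the 6, had a median of only about 3.8 fragments. The other 7 lists each had 0 to 3 genes above and 0 to 2 below. Over all 146 tested genes of the 8 lists, 19 lay above and 4 below.

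In the other 7 lists 0 genes were called. Among E2F, MYB and MYC factors, Mycn stood at 2.96, 3.06 and 3.22 FPKM in the WT and at 0.968, 1.15 and 2.23 FPKM in the KO hearts (log2 difference -0.92 ± 0.25, SE, n = 3 each; limma adjusted p = 0.293). Every KO value of Mycn lay below every WT value. E2f3, another activator of S phase genes, had means of 2.79 ± 0.25 and 2.11 ± 0.14 FPKM (SD, n = 3 each; log2 difference -0.32 ± 0.14, SE; limma adjusted p = 0.594). Myc, named after its values were seen, stood at 2.63, 2.13 and 3.69 FPKM in the WT and at 4.62, 6.46 and 3.03 FPKM in the KO hearts (log2 difference 0.63 ± 0.27; limma adjusted p = 0.595).

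Origin licensing and replisome genes had a median difference of 0.03 over 36 tested genes. Orc6, a subunit of the origin recognition complex, had means of 2.37 ± 0.91 FPKM in the WT and 4.04 ± 0.49 FPKM in the KO hearts, and Pola2, a subunit of the polymerase that starts each strand, of 5.52 ± 0.84 and 6.57 ± 0.20 FPKM (SD, n = 3 each; limma adjusted p = 0.420 and 0.640). The CDK subunit gene Cks1b and the phosphatase gene Cdc25b, an activator of CDK1, had log2 differences of 0.52 and 0.53 (limma adjusted p = 0.623 and 0.648). Ccng1, a cyclin gene induced by p53, was the highest of the named cell cycle genes, at 292 ± 38 and 306 ± 36 FPKM (SD, n = 3 each). The lists of the anaphase promoting complex, the kinetochore, condensin and cohesin, and further mitotic genes had medians from -0.01 to 0.10. Their members of smallest p were Mad1l1 and Anapc10 (log2 differences 0.36 and 0.35), Sgo2a and Cenpn (0.26 and 0.32), Ncaph and Ncapg2 (0.43 and 0.31), and Cep55 and Ckap2l (0.62 and 0.30), with limma adjusted p from 0.540 to 0.811. Over all tested genes of these lists, differences above and below 0 numbered 10 and 10 for the anaphase promoting complex, 10 and 5 for the kinetochore, 10 and 2 for condensin and cohesin, and 10 and 8 for further mitotic genes.

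Marker genes of other cells that could carry these transcripts were set beside the module. Neutrophil markers summed to 52.0 to 76.7 FPKM in the WT and 21.2 to 35.8 FPKM in the KO hearts, and 7 of 7 tested markers had a difference below 0. Markers of T and natural killer cells summed to 5.68 to 9.90 FPKM in the WT and 2.21 to 3.23 FPKM in the KO hearts. Those of B and plasma cells summed to 32.8 to 149 and 11.1 to 23.2 FPKM. Of the 8 markers in each list, 3 of the first and 5 of the second passed the filter on low values. Macrophage and monocyte markers summed to 463 to 868 FPKM in the WT and 429 to 606 FPKM in the KO hearts, with 6 of 8 differences below 0. Of the T and natural killer, B and plasma, and macrophage and monocyte markers, 0 were called. Their smallest limma adjusted p were 0.0908, 0.312 and 0.143. Single genes weighed heavily in these sums. In WT replicate 1 Lyz2 held 719 of the 868 FPKM, and Jchain 74.5 and Iglc1 63.1 of the 149 FPKM. The summed level of the 44 cell cycle genes was 148 to 167 FPKM in the WT and 130 to 188 FPKM in the KO hearts. S100a8, a gene of the neutrophil list, fell in the KO hearts (limma adjusted p = 0.0467).

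Within the KO hearts the neutrophil sum, as deposited, had the order of the cell cycle genes, but single markers did not all share it. The sum was 21.2, 22.1 and 35.8 FPKM in KO replicates 1 to 3, with KO replicates 1 and 2 close together. After scaling, S100a8, S100a9 and Mmp9 were lowest in KO replicate 2 and Csf3r in KO replicate 3. Mmp8, Cxcr2 and Retnlg were lowest in KO replicate 1. The WT hearts, with cell cycle values between those of KO replicates 1 and 3, had higher neutrophil sums than any KO heart. Fibroblast markers summed to 1663, 2375 and 1209 FPKM in KO replicates 1 to 3, so that the heart with the highest cell cycle values had the lowest sum. Endothelial markers summed to 352, 409 and 326 FPKM, mural markers to 654, 681 and 544 FPKM, and macrophage and monocyte markers to 468, 606 and 429 FPKM in the same order of hearts, each lowest in KO replicate 3. Erythroid markers, with Gata1 listed at 0 in every library, summed to 4571, 4404 and 7279 FPKM in KO replicates 1 to 3 and to 6301 to 11040 FPKM in the WT hearts. Cardiomyocyte markers summed to 8718, 6544 and 10022 FPKM in KO replicates 1 to 3. Markers of T and natural killer cells summed to 2.21, 3.23 and 2.70 FPKM in the same order of hearts, and those of B and plasma cells to 23.2, 18.0 and 11.1 FPKM. The part of these cells in the spread of the cell cycle genes was not tested.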

How the data were processed

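Hearts of 3 WT and 3 KO mice were frozen and sequenced from Illumina TruSeq RNA libraries, per the labels. The authors deposited 1 table of FPKM per gene, although its title speaks of counts: values that are not whole make up 37.2% to 40.4% of each library. Bowtie 0.12.2 and the builds mm8 and mm9 appear without a role, per the submitters' processing notes. The quantifier, annotation, filters and strand use were not given in the sources used here. Symbols and coordinates came from GENCODE M21 (GRCm38), which matched 52403 of 52550 rows by identifier; no coordinate was converted. The 37 mitochondrial genes are listed at 0 in every library. Depth per library was estimated from the most frequent product of FPKM and length in genes with a single transcript, and fragments per gene from the longest coding transcript, so both are approximate. No interval rests on counts, and whole counts were not recovered.

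Genes with at least 0.5 FPKM in 3 or more libraries (14656) were scaled by trimmed means of log2 ratios (trims 0.3 and 0.05; factors 0.949 to 1.07). Log2(FPKM / factor + 0.5) was fitted with limma 3.58.1 in R 4.3.3 (genotype only, mean-variance trend, empirical Bayes, two-sided, Benjamini-Hochberg over all tested genes, threshold 0.05). Replicates are mice with no stated litter or batch, so the p-values reflect only the variation among these 6 samples. The fit was tested on simulated data. Overlapping and near-identical genes were looked up in the annotation and with BLAST 2.17.0 (at least 95% identity over 200 bases). The members and all lists were chosen with earlier results of these data known. Values in every library were to be given for called members, 15 fixed genes and the member of smallest p in each role, and for each further list the called genes and the 2 of smallest p, with Cdkn1a, Cdkn1c, Wee1 and Ccng1; non-overlapping members were added. Alternatives were other scaling, filters, pseudocounts and variance settings, a replicate block and each library left out.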

Additional observations from a re-analysis of the deposited data

How the results depend on the processing

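No cell cycle gene of the module was called under any of the 17 alternatives. Over all genes 55 were called, 20 without a filter on low values, and 12 to 36 when 1 library was left out. The count of module genes without overlap was 5, and 3 both without scaling and when genes needed 1 FPKM. Over all tested genes, 775 lay above and 1099 below of 14656 without scaling, and 854 and 960 of 12840 at 1 FPKM. With 1 library left out, which makes overlap rarer by construction, the module count was 5 to 13. It was 5 without WT replicate 1, where 1834 of all 14319 tested genes lay above and 1878 below. It was 13 without KO replicate 1, where 10.4% of all tested genes lay above and 11.0% below. The median difference of the module, 0.05, ran from -0.0649 (without KO replicate 3) to 0.19 (without KO replicate 1). The 2 calls in the wider machinery became 0 without KO replicate 1 and 1 without WT replicate 2; the cause was not tested. With 1 library left out the log2 difference crossed 0 for 9 of 42 named genes: Ccnb1 (-0.04 to 0.28), Ccnd3 (-0.47 to 0.19), Ccng1 (-0.07 to 0.22), Foxm1 (-0.01 to 0.33), Mcm2 (-0.04 to 0.20), Mki67 (-0.06 to 0.34), Pcna (-0.10 to 0.18), Rrm2 (-0.0062 to 0.20) and Top2a (-0.09 to 0.37).

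The replicate numbers of the titles were entered as a replicate block, which left 0 module genes and 42 genes in all called. The labels give same-numbered libraries no common feature but the number. The correlations of their deviations across genes were 0.00759, -0.0357 and 0.18 for replicates 1 to 3. For WT and KO libraries of unlike number they ran from -0.202 to 0.193. So few pairs cannot decide whether same-numbered hearts shared a batch or litter. Low depth limits genes under 1 FPKM, where a few fragments set a value. The same alternatives were run on the wider lists after the data had been seen.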
